A study of Mus musculus with 15 samples.

Results

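The 2 death-domain mutants of Malt1, V87R and L88D, were compared with an empty vector in E0771 cells, a line from a mammary carcinoma of the mouse. The comparison took every library of 3 groups: 3 of Malt1_V87R, 3 of Malt1_L88D and 3 of the vector control, together 9 of the 15 libraries of the series. The groups were chosen by their labels and not by any measured value. All cells were E0771 cancer cells kept without T cells, and they differed in the construct they carried: an empty vector, Malt1 with the V87R substitution, or Malt1 with the L88D substitution. A group with wild-type Malt1 (Malt1_WT, 3 libraries) was used to show where the mutants differ from the unchanged protein. A group labelled Malt1_PD entered only the filter on low counts, the scaling of the libraries and the shared estimate of the spread. The cells were not labelled as lacking their own Malt1, so the mutants were read on top of the endogenous gene. The labels do not say which promoter drives the constructs, whether each line is a pool or a clone, or whether replicates are separate cultures. The p-values therefore rest on differences among these libraries alone, and those may be technical.

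MALT1 is a paracaspase, a protease related to caspases, and also a scaffold. Its N-terminal death domain binds BCL10, which joins it to a CARD protein, and the assembled filament recruits TRAF6 and activates the IKK kinases and NF-kB, the transcription factor family behind many cytokine and chemokine genes. V87R and L88D lie in that death domain, so the comparison addresses what is left of the response to Malt1 when the BCL10-binding part is changed. A second set of genes that matters here is the interferon response, in which interferon receptors activate JAK kinases and STAT factors. These and the IRF family bind elements known as GAS and ISRE and induce guanylate-binding proteins, immunity-related GTPases, antigen presentation genes and CXCL9 and CXCL10.

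Library totals of the 9 libraries ran from 15760281 to 21458457 counts. Of 14571 genes that passed the filter on low counts, a gene was called when its adjusted p was under 0.05 in edgeR's quasi-likelihood test. All CPM values (counts per 1000000 of the TMM-scaled library total) are given per library or as mean ± SD with n = 3, and log2 fold changes are given ± their standard error (SE). The labelled cancer cell was checked against its markers in the vector libraries. The epithelial keratin Krt8 was at 117 ± 8.62 CPM. The mesenchymal filament vimentin, Vim, was far above it, at 3923, 3669 and 3802 CPM. Krt18, the partner keratin, and Cdh1, the epithelial cadherin, were near 0 at 0.357 ± 0.203 and 0.429 ± 0.266 CPM. Libraries 2 and 3 of L88D stood apart in macrophage and dendritic cell markers, whose summed level over 24 genes was 90.6 and 79.6 CPM there, 58.1 CPM in L88D library 1, 56.0 to 60.4 CPM in V87R, 57.4 to 59.5 CPM with the vector and 93.5 to 94.1 CPM in all 3 wild-type libraries. The macrophage lysozyme Lyz2 was at 19.5 and 16.2 CPM in those 2 libraries against 5.49 CPM in L88D library 1 and 2.37 to 6.9 CPM in wild type. In L88D libraries 1, 2 and 3, Apoe was at 7.06, 15.3 and 11.9 CPM and Adgre1 at 0.0631, 0.809 and 0.886 CPM. Cd14 was even there, at 8.13, 8.56 and 8.39 CPM. Wild type had 23.4 ± 1.32 CPM of Cd14 and 25.2 ± 1.53 CPM of Cd68, against 8.03 ± 0.25 and 12 ± 0.516 CPM with the vector. Its Apoe was at 5.39 ± 0.326 CPM and its Adgre1 at 1.23 ± 0.189 CPM. Ptprc, the CD45 antigen of all blood leukocytes, had at most 2 counts in any vector or V87R library and at most 5 in L88D. Of the 24 markers, 1 to 5 were at 0 in the L88D libraries, 3 to 10 in V87R and 7 to 8 with the vector. Counts without those 2 libraries are given beside the results below, and their part in any other value was not tested.

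The promoters of 4 of the strongest rises show what these genes share in sequence and where they differ. Each run below is the 250 bases before the transcription start, 5′ to 3′ on the gene's strand, from RefSeq on GRCm38.p6. Capitals mark an ISRE core (TTTC, any 2 bases, TTTC; an element bound by IRF factors) or a GAS core (TTC, any 3 bases, GAA; a STAT dimer element), in either orientation. Gbp2 lies at chr3:142620413-142620662 on the plus strand, Igtp at chr11:58199306-58199555 on the plus strand, Tgtp1 at chr11:48992247-48992496 on the minus strand and Cd274 at chr19:29367188-29367437 on the plus strand.
Gbp2: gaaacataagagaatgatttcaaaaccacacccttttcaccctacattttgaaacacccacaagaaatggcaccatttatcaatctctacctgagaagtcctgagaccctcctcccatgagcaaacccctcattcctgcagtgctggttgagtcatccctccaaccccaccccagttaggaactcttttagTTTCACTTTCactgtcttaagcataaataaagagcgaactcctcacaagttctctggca
Igtp: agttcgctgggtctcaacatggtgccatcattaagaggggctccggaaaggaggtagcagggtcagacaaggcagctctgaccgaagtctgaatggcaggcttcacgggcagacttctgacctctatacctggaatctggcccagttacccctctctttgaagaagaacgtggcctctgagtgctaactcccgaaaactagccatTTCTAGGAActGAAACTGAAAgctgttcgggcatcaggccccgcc
Tgtp1: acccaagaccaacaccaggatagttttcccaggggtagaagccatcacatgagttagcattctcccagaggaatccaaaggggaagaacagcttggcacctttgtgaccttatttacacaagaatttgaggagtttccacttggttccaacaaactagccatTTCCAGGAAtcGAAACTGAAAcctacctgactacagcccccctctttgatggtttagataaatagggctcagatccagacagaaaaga
Cd274: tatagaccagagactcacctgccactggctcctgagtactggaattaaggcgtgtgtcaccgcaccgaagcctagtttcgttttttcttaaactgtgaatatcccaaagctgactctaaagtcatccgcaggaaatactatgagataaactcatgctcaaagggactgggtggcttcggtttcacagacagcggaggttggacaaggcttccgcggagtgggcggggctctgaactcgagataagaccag
Gbp2 holds an ISRE core that begins 59 bases before the RefSeq start. The GENCODE start of Gbp2, used for the gene coordinates further below, lies inside this window, upstream of the core. Igtp and Tgtp1, both immunity-related GTPase genes on chromosome 11, hold a GAS core followed after a pair of bases by an ISRE core with the same letters, GAAACTGAAA, which begins 34 bases before the start in Igtp and 77 bases before it in Tgtp1. Cd274, which rose 35.2-fold, holds neither core in this window, nor the kB core (GGGA, any 2 bases, TTCC). Over windows of 300 bases (250 before and 50 after the start), an ISRE core was found in 3.99% of all 27025 genes with a RefSeq promoter (3.8% of the tested genes that have one), in 5 of the 8 largest rises that have an entry and in 0 of the 4 largest falls that have one. It was found in 22 of 35 interferon-stimulated genes (62.9%), 5 of 17 genes of MHC class I presentation, 3 of 39 NF-kB target genes and 1 of 29 G2/M genes. The kB core was found in 8 of 39 NF-kB target genes (20.5%) against 1.63% of all genes with a promoter. It was also in 5 of 35 interferon-stimulated genes (14.3%), 1 of 17 MHC class I genes, 1 of 29 G2/M genes and 2 of the 8 largest rises. The GAS core was found in 9.55% of all genes with a promoter and in 3 of the 8 largest rises. It was in 11 of 35 interferon-stimulated genes, 2 of 17 MHC class I genes, 8 of 39 NF-kB target genes and 0 of 29 G2/M genes. These are letter matches on both strands and not measured binding sites.

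Malt1 itself (GRCm38 chromosome 18, 65430938 to 65479067, plus strand) was at 26.4, 30.2 and 27.8 CPM in the vector libraries. It was at 279, 279 and 281 CPM in V87R and at 258, 245 and 251 CPM in L88D. All 6 mutant libraries were thus far above the vector and the groups did not overlap. The rise was 3.24 ± 0.05 on the log2 scale for both mutants together (adjusted p = 2.1e-28), 9.96-fold in V87R and 8.96-fold in L88D. Wild-type Malt1 cells had 202 ± 7.96 CPM (SD, n = 3), and the mutants were 1.31-fold above them (adjusted p = 3.8e-10). A gene count does not read the substitutions and cannot tell construct from endogenous transcripts.

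Against the vector, the mutants together had 1419 genes higher (9.74% of those tested) and 1314 lower (9.02%), 18.8% in all. V87R alone had 1021 higher (7.01%) and 685 lower (4.7%), and L88D alone had 1306 higher (8.96%) and 1228 lower (8.43%). The large changes were nearly all rises. Of the called genes, 209 rose at least 2-fold and 18 fell at least 2-fold, with 183 and 17 in V87R and 233 and 21 in L88D. The 18 falls were all in genes of low level, at most 4.38 CPM with the vector, whereas 87 of the 209 rises reached a mean of 5 CPM in the mutants. The median log2 fold change over all genes was -0.0044. All 6 mutant libraries lay above all 3 vector libraries for 1418 genes (9.73%) and below them for 1438 (9.87%). The counts rested in part on single libraries. Without vector library 1 they were 999 higher and 635 lower, without vector library 3 the number lower was 704, and without L88D libraries 2 and 3 they were 928 higher and 803 lower.

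**Figure D1:**
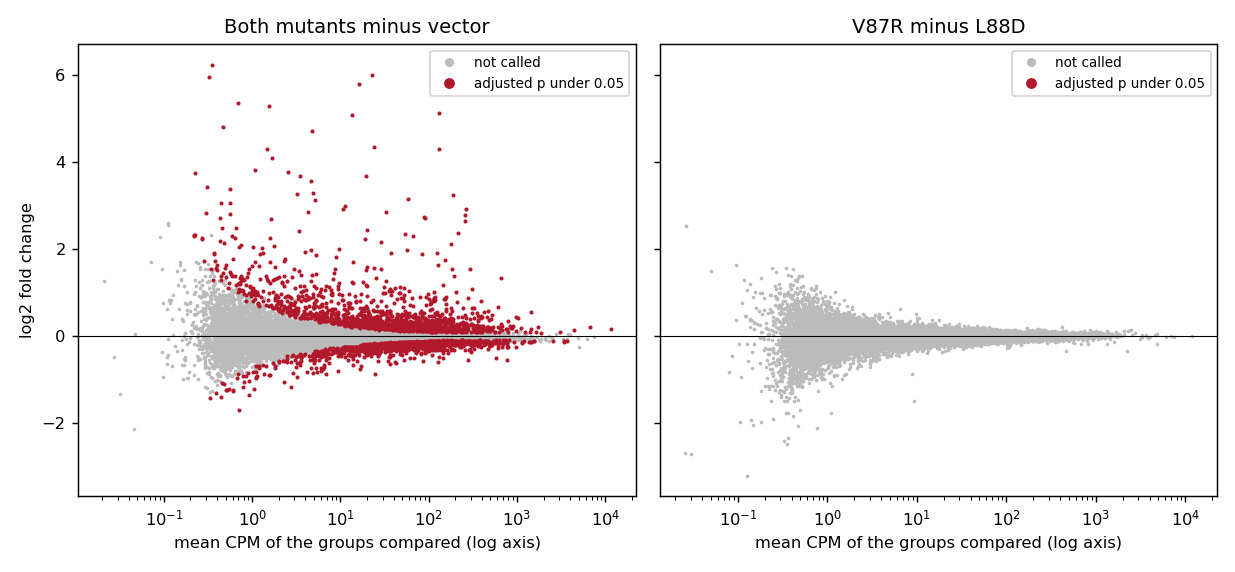
Log2 fold change (vertical axis) against mean CPM (horizontal log axis) for each of the 14571 genes tested, for both mutants minus vector (left) and V87R minus L88D (right). Red points have an adjusted p under 0.05: 1419 higher and 1314 lower on the left, with the large values nearly all upward, and 0 on the right.

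Among genes that reached 5 CPM, the 12 that rose most were Cxcl9, Cd274, Gbp4, Iigp1, Tgtp1, Gvin1, Ifi47, Apol10b, Batf2, Gbp2, Igtp and Gbp5. They hold the chemokine Cxcl9, the checkpoint ligand Cd274, 3 guanylate-binding proteins, the GTPases Iigp1, Tgtp1, Ifi47 and Igtp of the immunity-related family, the very large interferon-inducible GTPase Gvin1, an apolipoprotein L gene and the transcription factor gene Batf2. Their folds over the vector ran from 64.6 (Cxcl9) to 6.71 (Gbp5), and in each of the 12 the 6 mutant libraries lay above the 3 vector libraries. The Gbp, Irg and Tgtp families have close paralogs, and how the counting treated reads that match several members is not given in the sources used here, so the split within a family is uncertain.

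**Figure D2:**
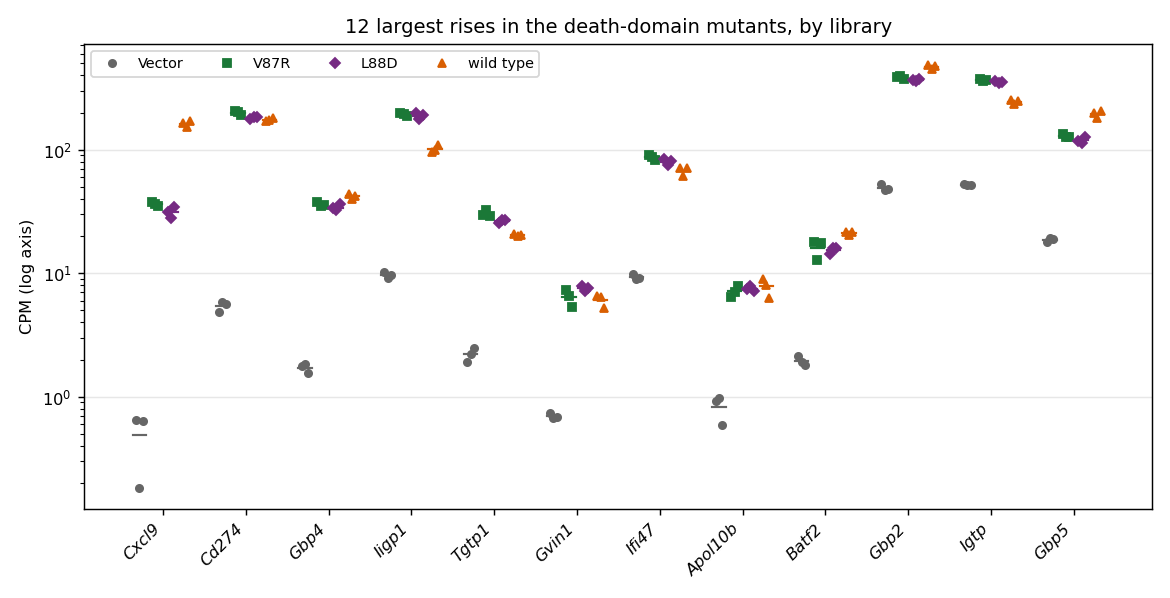
CPM per library (log axis) of the 12 genes with the largest rises, for vector, V87R, L88D and wild type, 3 libraries each; points are libraries and short lines are group means. The 2 mutants sit together far above the vector for every gene, while the wild type is above them for Cxcl9 (163 against 36.5 and 31.2 CPM) and below them for Iigp1 (102 against 194 and 189 CPM).

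Cd274 (GRCm38 chromosome 19, 29367455 to 29388095, plus strand) encodes PD-L1, the ligand through which tumour cells engage PD-1 on T cells. It was at 4.83, 5.89 and 5.63 CPM with the vector, 207, 202 and 190 CPM in V87R and 178, 185 and 183 CPM in L88D. The mutant libraries were all at least 178 CPM and none came near the vector. The rise was 5.14 ± 0.06 on the log2 scale (adjusted p = 1.3e-29), 36.8-fold in V87R and 33.6-fold in L88D, and it stayed between 5.05 and 5.19 under each of the 18 alternatives. Wild-type cells had 175 ± 4.76 CPM, and the mutants were 1.09-fold above them (adjusted p = 0.011).

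Cxcl9, the chemokine that draws CXCR3-bearing T cells, was at 0.65, 0.184 and 0.636 CPM with the vector, 37.9, 36.7 and 34.8 CPM in V87R and 31.2, 28.1 and 34.3 CPM in L88D. It was near absent with the vector and well measured in all 6 mutant libraries. The log2 rise was 6.01 ± 0.17 (adjusted p = 2.7e-18). Its neighbour on chromosome 5 and fellow CXCR3 ligand Cxcl10 went from 19.2 ± 0.522 CPM to 128 ± 8.36 CPM in V87R and 127 ± 6.07 CPM in L88D, 6.62-fold (adjusted p = 1.1e-14). Both were above the mutants in wild-type cells, with the mutants at 0.206 (Cxcl9) and 0.585 (Cxcl10) of the wild-type level (adjusted p = 4.8e-19 and 3.3e-09).

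Of the 46 interferon-stimulated genes, 41 were higher and 0 lower in the mutants together, 40 and 0 in V87R and 41 and 0 in L88D, against 9.74%, 7.01% and 8.96% of all genes higher. The list's median log2 fold change was 0.745 against -0.0044 over all genes tested. The 41 and 0 were the same number without L88D libraries 2 and 3. The 5 that were not called were Isg15, Ifi35, Bst2, Ifitm3 and Oasl1, at log2 fold changes of 0.27, 0.20, 0.12, 0.04 and -0.11.

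The guanylate-binding proteins are GTPases that coat and break open vacuoles of intracellular microbes. Gbp2 (GRCm38 chromosome 3, 142620602 to 142638008, plus strand) was at 53.1, 46.8 and 48.4 CPM with the vector, 389, 393 and 373 CPM in V87R and 370, 359 and 377 CPM in L88D. The groups were far apart, and it rose 7.77-fold in V87R and 7.44-fold in L88D (adjusted p = 1.7e-27 for both together). Gbp3 rose 3.4-fold, Gbp6 4.48-fold, Gbp7 4.35-fold and Gbp9 5.07-fold (these 4 were named after their values were seen), and of these 4, Gbp9 was 1.14-fold above wild type (adjusted p = 0.024) while Gbp3, Gbp6 and Gbp7 were not called against it (adjusted p = 0.92, 0.77 and 0.97). Gbp10 and Gbp8, both at low level, were at 1.81 and 0.583 of the wild type (adjusted p = 0.011 for each).

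The immunity-related GTPases act on the same vacuoles. Igtp (GRCm38 chromosome 11, 58199556 to 58207591, plus strand), also called Irgm3, was at 53.1, 51.6 and 52.1 CPM with the vector, 372, 361 and 366 CPM in V87R and 359, 345 and 355 CPM in L88D. Iigp1 was at 10.2, 9.08 and 9.74 CPM with the vector, 200, 195 and 187 CPM in V87R and 197, 179 and 190 CPM in L88D. Every mutant library was above every vector and every wild-type library for both genes. Igtp rose 6.87-fold and Iigp1 19.7-fold over the vector, and they were 1.46-fold and 1.89-fold above wild type (adjusted p = 7.4e-14 and 6e-15). Irgm2 was likewise 5.17-fold above the vector and 1.4-fold above wild type, and Tgtp1 was 12.9-fold and 1.39-fold above them. Irgm1 rose 3.77-fold and did not differ from wild type in the test (1.03-fold, adjusted p = 0.34).

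The signalling genes of the pathway, chosen after their values were seen, moved unequally. Among the ligands, Ifng had 0 counts in each vector library and 0 to 2 counts in the mutants, Ifnb1 had at most 6 counts in any of the 9 libraries, and Ifnk, Ifnl2 and Ifnl3 had 0 in all. A count of 0 allows up to 3 counts in a library, so ligand transcripts below that level were not detectable. Among the receptors, Ifngr1 was 0.879 of the vector level (adjusted p = 0.014), while Ifngr2, Ifnar1 and Ifnar2 were not called (0.96-, 1.01- and 1.12-fold). Of the kinases, Jak2 rose 1.5-fold (adjusted p = 3.9e-09) and Jak1 and Tyk2 were not called (1.06- and 0.965-fold).

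Transcription factors downstream in the pathway were also higher than with the vector. Irf1, an interferon- and NF-kB-inducible factor, was at 58.7, 56.0 and 55.6 CPM with the vector, 368, 350 and 363 CPM in V87R and 342, 351 and 351 CPM in L88D. All 6 mutant libraries were far above the vector. Irf1 rose 6.24-fold (adjusted p = 1.7e-27), Stat2 2.61-fold, Irf7 1.41-fold and Irf9 1.23-fold. Irf1 was at 0.839 of the wild-type level (adjusted p = 4.4e-07). Of the feedback inhibitors, Socs1 rose 2.99-fold and Socs3 1.58-fold over the vector.

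Genes of MHC class I presentation rose as a group: of 20 tested, 17 were higher and 0 lower in the mutants together, 17 and 0 in V87R and 17 and 1 in L88D, against 9.74%, 7.01% and 8.96% of all genes higher, with a median log2 fold change of 0.768. The count of 17 was the same under each alternative. Nlrc5, the transactivator of class I genes, was at 49.9, 57.1 and 53 CPM with the vector, 165, 161 and 163 CPM in V87R and 162, 166 and 175 CPM in L88D. Psmb9, a catalytic subunit of the immunoproteasome, was at 13.5, 12.2 and 13.8 CPM with the vector, 46.6, 50.6 and 47.6 CPM in V87R and 51.1, 51.5 and 51.5 CPM in L88D. Both had mutant libraries wholly above the vector, by 3.11-fold and 3.77-fold (adjusted p = 6.7e-21 and 4.8e-19). Psmb10 rose 3.7-fold and Tap1, a chain of the peptide transporter, 2.94-fold. The heavy chains H2-K1 and H2-D1 and the light chain B2m rose less, by 0.37, 0.25 and 0.41 on the log2 scale, and the general chaperones Calr, Canx and Pdia3 were not called. Ciita, the class II transactivator, went from 0.454 ± 0.168 to 4.65 ± 0.34 CPM in V87R and 4.46 ± 0.67 CPM in L88D (adjusted p = 2.8e-10).

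**Figure D3:**
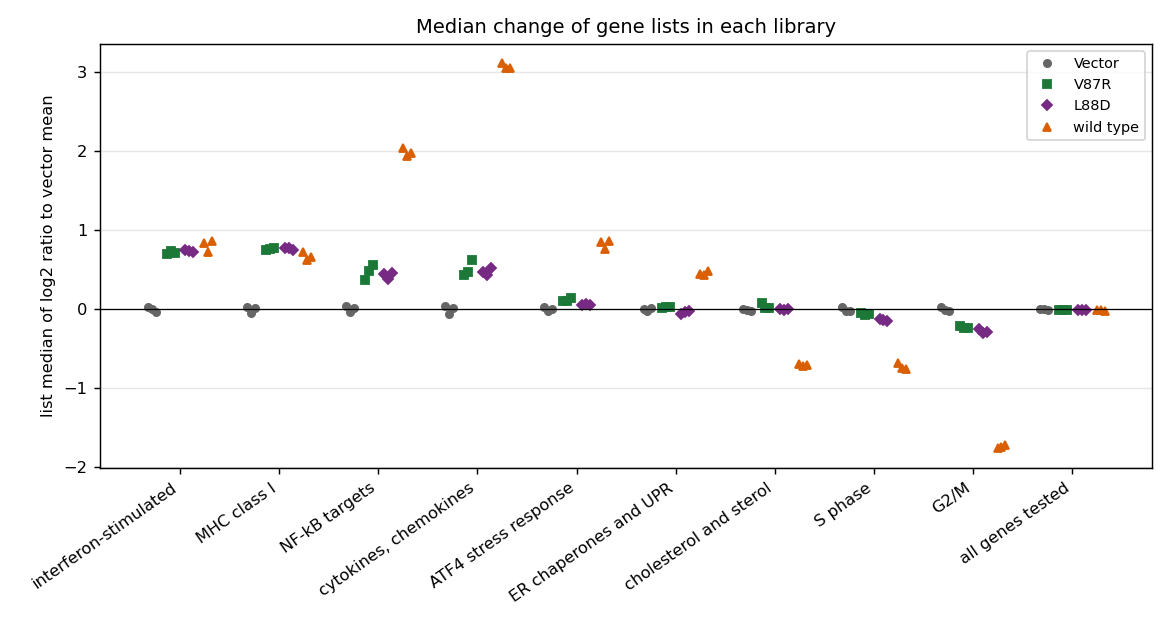
Median over the tested members of 9 gene lists, and over all genes tested, of the log2 ratio of each library to the vector mean (vertical axis, log2 of CPM plus 0.5); points are libraries. The 6 mutant libraries lie at 0.701 to 0.754 for interferon-stimulated genes, where wild type lies at 0.723 to 0.870, and at 0.368 to 0.560 for NF-kB targets, where wild type lies at 1.935 to 2.038.

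Of 54 NF-kB target genes, 37 were higher and 0 lower in the mutants together, 37 and 0 in V87R and 36 and 0 in L88D, against 9.74%, 7.01% and 8.96% of all genes higher, with a median log2 fold change of 0.507. Without L88D libraries 2 and 3 the numbers were 36 and 0 for both mutants together. The L88D count was then 25 and 0, from 1 library that is assumed to vary like the other groups, so that the test also had fewer samples. Irf1 and Cxcl10, with the largest rises of this list, also stand on the interferon list. The rises were small beside those in wild-type cells: against wild type, 47 of the 54 were lower in the mutants and 3 higher (25.4% and 26.1% of all genes), with a median of -1.421.

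Nos2, the inducible nitric oxide synthase, was at 303, 316 and 347 CPM with the vector, 763, 756 and 782 CPM in V87R and 841, 863 and 902 CPM in L88D. Il6, an inflammatory interleukin, was at 17.6, 17.1 and 16.5 CPM with the vector, 40.2, 42.9 and 35.5 CPM in V87R and 38.5, 33.9 and 36.2 CPM in L88D. Both stood clear of the vector in all 6 libraries, at 2.54-fold (adjusted p = 2.7e-21) and 2.21-fold (adjusted p = 1.7e-14). Wild-type libraries were at 2419, 2266 and 2360 CPM for Nos2 and 293, 296 and 282 CPM for Il6, and the mutants were at 0.348 and 0.13 of those levels (adjusted p = 2.3e-24 and 7.6e-28). Sod2, the mitochondrial superoxide dismutase, rose 1.56-fold and Ccl2, a monocyte chemokine, 1.61-fold.

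Cxcl2, a neutrophil chemokine, was at 4.69, 4.05 and 3.53 CPM with the vector, 9.08, 10.4 and 11.2 CPM in V87R and 9.08, 10.7 and 11.3 CPM in L88D. Ccl3, a macrophage-attracting chemokine, was at 2.69, 3.31 and 2.89 CPM with the vector, 7.34, 6.69 and 6.46 CPM in V87R and 6.94, 4.66 and 6.62 CPM in L88D. The mutants were above the vector in every library, by 2.51-fold for Cxcl2 (adjusted p = 1.5e-11) and 2.17-fold for Ccl3 (adjusted p = 2.4e-05). In wild-type cells the same genes stood at 274 ± 9.18 and 357 ± 19.3 CPM (SD, n = 3), so the mutants were at 0.0377 and 0.0179 of the wild-type level (adjusted p = 2.7e-31 and 6e-22). Csf3, the granulocyte colony-stimulating factor, was 2.38-fold above the vector and at 0.0424 of the wild type. Il1b was at 0.184 to 0.245 CPM with the vector and 0.19 to 0.279 CPM in the mutants, with overlapping groups and no call (adjusted p = 0.84), against 15 ± 1.71 CPM in wild-type cells. Ccl3, Csf3 and Il1b were named after their values were seen.

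Of 38 cytokine and chemokine genes, 23 were higher and 2 lower in the mutants together, 24 and 1 in V87R and 22 and 1 in L88D (median 0.619), against 9.74%, 7.01% and 8.96% of all genes higher. The 2 lower were Tgfb3 and Tgfb1 which fell by 0.34 and 0.13 on the log2 scale. Ccl8 was higher than in wild-type cells as well as the vector, by 0.90 and 1.43 on the log2 scale. Against wild type, 31 of the 38 were lower and 3 higher in the mutants (25.4% and 26.1% of all genes). The mRNAs known as targets of Regnase-1 and Roquin, RNA-binding proteins that MALT1 cleaves, rose in 15 of 20 and fell in 0 (median 0.517). The numbers were 15 and 0 in V87R and 14 and 0 in L88D. Among them were Cxcl2, Csf3 and Il6 above and Ptges, a prostaglandin synthase, at 1.37-fold. Against wild type, 18 of the 20 were lower and 0 higher in the mutants (median -1.507).

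The genes of the complex itself changed little, near the 9.74% of all genes called higher. More of the NF-kB subunits and inhibitors and of the cleaved substrates were higher than that share. Of 12 genes of the CARD-BCL10-MALT1 complex and its partners other than Malt1, 1 was higher, Ikbkg, the regulatory subunit of the IKK complex (1.11-fold, adjusted p = 0.022). Ikbkg lost the call in 2 of the 18 alternatives. Bcl10, the partner that the death domain binds, was at 83.7, 79.5 and 85.8 CPM with the vector, 86.8, 88.1 and 84.4 CPM in V87R and 86.3, 85.0 and 83.4 CPM in L88D. Its groups overlapped, and the log2 difference of 0.04 ± 0.04 was not called (adjusted p = 0.51), while wild-type cells had 138 ± 9.15 CPM. Of 14 NF-kB subunits and inhibitors, 5 were higher and 1 lower, Rela, which fell by 0.11 on the log2 scale. Tnfaip3, the inhibitor A20, rose 1.42-fold in V87R and 1.28-fold in L88D to 40.9 ± 3.44 and 36.8 ± 2.76 CPM, against 150 ± 3.05 CPM in wild-type cells, and Nfkbia, the inhibitor IkB-alpha, was not called (log2 fold change 0.00). Of 13 transcripts whose proteins MALT1 cleaves, 5 rose and 0 fell, among them Rbck1 (1.23-fold), the HOIL-1 subunit of the linear ubiquitin ligase, and Zc3h12a (1.11-fold), which encodes Regnase-1.

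**Figure D4:**
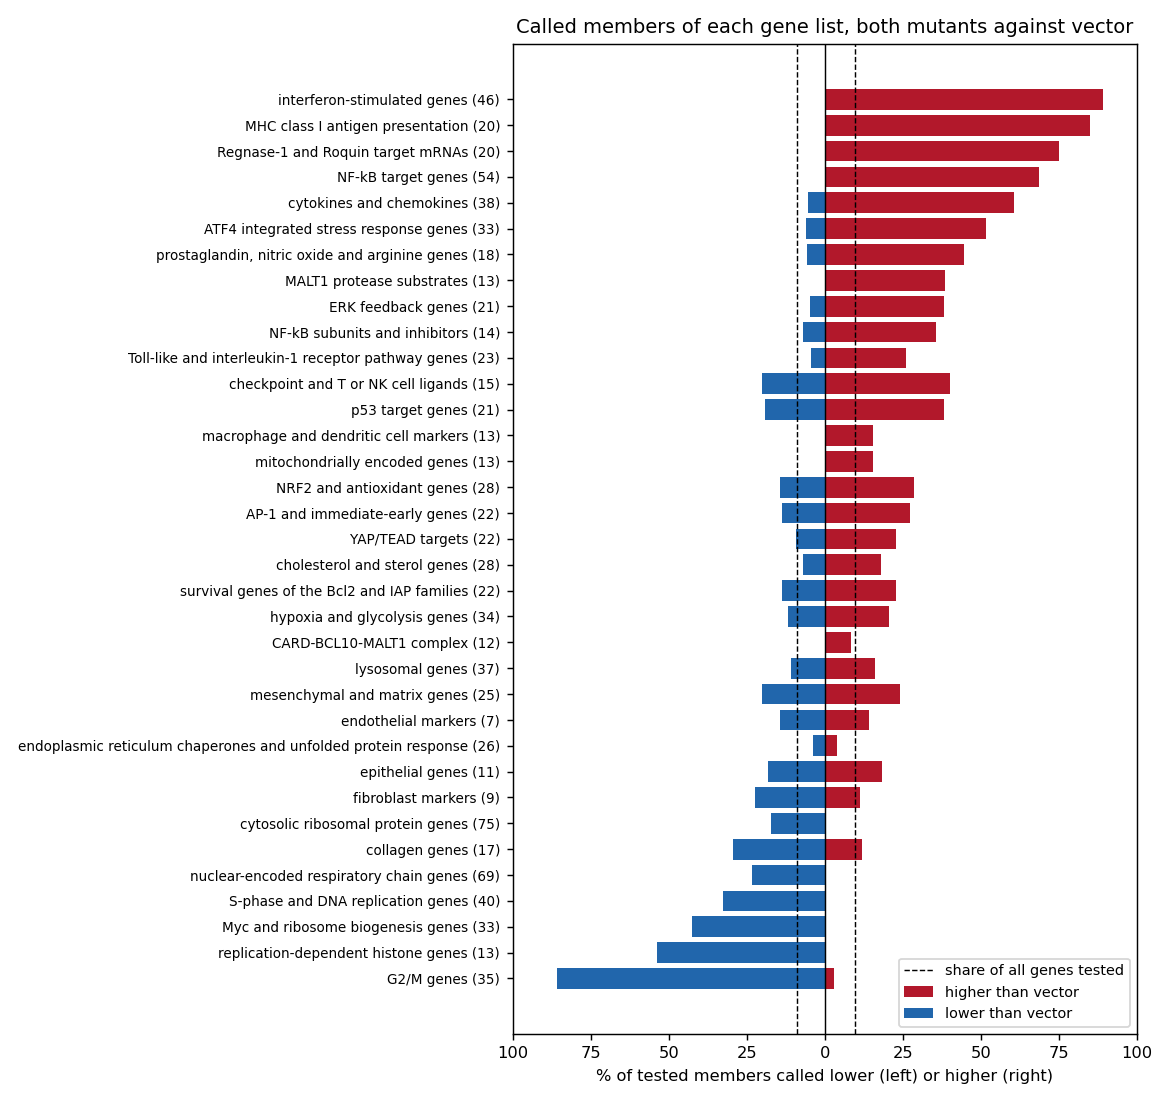
Share of the tested members of each gene list called higher (red, right) or lower (blue, left) in both mutants against vector, in percent; the number tested is in brackets and dashed lines mark the shares over all genes tested (9.74% higher, 9.02% lower). Interferon-stimulated genes (41 of 46) and MHC class I genes (17 of 20) have the longest red bars, and G2/M genes (30 of 35) the longest blue one.

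Outside immunity, genes of mitosis formed the clearest group that fell. Of 35 G2/M genes, 30 were lower and 1 higher in the mutants together, 30 and 1 in V87R and 29 and 0 in L88D, against 9.02%, 4.7% and 8.43% of all genes lower, with a median log2 fold change of -0.264. Cdc20, which switches on the anaphase-promoting complex, was at 174, 154 and 163 CPM with the vector, 119, 110 and 114 CPM in V87R and 105, 105 and 106 CPM in L88D. All 6 mutant libraries were below the lowest vector library, and the ratio was 0.699 in V87R and 0.642 in L88D (adjusted p = 1.8e-11 for both together). Plk1, a mitotic kinase, was at 0.743 of the vector level, Kif20a, a kinesin of cytokinesis, at 0.765, Prc1, which bundles the central spindle, at 0.817, and Mki67, the Ki-67 antigen (named after its values were seen), at 0.799. These falls were small beside those of wild-type cells: all 35 genes were higher in the mutants than in wild type (median 1.458), and Mki67 was at 185 ± 8.75 CPM in V87R and 176 ± 8.66 CPM in L88D against 226 ± 5.61 CPM with the vector and 50.2 ± 1.79 CPM in wild type.

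Of 40 S-phase and replication genes, 13 were lower and 0 higher, with 5 lower in V87R and 19 in L88D (median -0.098), against 9.02%, 4.7% and 8.43% of all genes lower. The number lower was 5 without vector library 1, 8 without L88D library 3 and 7 without L88D libraries 2 and 3. Over the alternatives it ran from 3 to 7 in V87R and from 2 to 21 in L88D, with the 2 from L88D library 1 alone, and no S-phase gene was called between the mutants. Tk1, thymidine kinase, was at 0.833 of the vector level (adjusted p = 4.5e-05) and Mcm7, a subunit of the replicative helicase, at 0.882. Of 13 replication-dependent histone genes, 7 were lower and 0 higher (median -0.732). Hist1h1c, the linker histone H1.2, was at 35.2, 34.4 and 35.6 CPM with the vector, 20.9, 20 and 19.6 CPM in V87R and 20.2, 15 and 19.6 CPM in L88D. All mutant libraries were below the vector, at 0.545 of its level (adjusted p = 3.7e-10), the largest fall among genes of at least 5 CPM. Histone transcripts of this kind mostly lack a poly(A) tail, and the RNA selection step of the libraries is not given in the sources used here.

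The other 11 of the 12 largest falls were Gprc5b, Lrrc15, Tent5b, Kctd14, Ccn5, Ldb2, Wfdc1, Cacna1a, Fam19a5, Hist1h2bc and Kazald1, at 0.549 to 0.605 of the vector level, and 9 of them were at less than 10 CPM with the vector. Gprc5b, an orphan receptor of the G-protein-coupled class, was at 10.4, 9.51 and 9.74 CPM with the vector, 5.3, 6.23 and 5.16 CPM in V87R and 5.23, 5.04 and 5.61 CPM in L88D. Ccn5, a secreted matricellular protein, was at 12.7, 14.5 and 11.7 CPM with the vector, 8.16, 6.74 and 6.97 CPM in V87R and 8.58, 7.23 and 6.97 CPM in L88D. Neither overlapped the vector, and both were far above the wild-type level, by 6.85-fold and 67.3-fold (adjusted p = 2.2e-13 and 1.3e-16). Cacna1a, a neuronal calcium channel subunit, went from 22.9 ± 0.652 to 13.6 ± 0.878 CPM in V87R and 13.7 ± 0.179 CPM in L88D. Lrrc15 and Kazald1 were lower in the mutants than in wild type as well, at 0.751 and 0.762 of it (adjusted p = 0.012 and 0.0051).

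**Figure D5:**
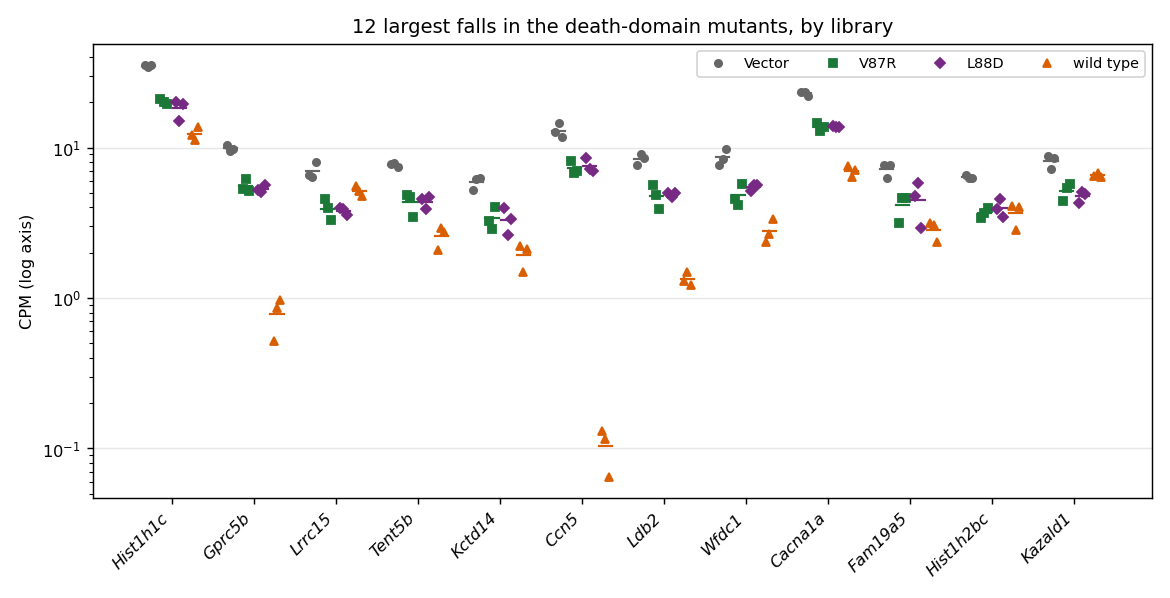
CPM per library (log axis) of the 12 genes with the largest falls, for vector, V87R, L88D and wild type, 3 libraries each; points are libraries and short lines are group means. The mutants lie at 0.545 to 0.605 of the vector, together with each other, and wild type lies far lower still for Gprc5b (0.782 CPM) and Ccn5 (0.103 CPM).

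Several groups that respond to stress moved in part. Of 33 ATF4 target genes, 17 were higher and 2 lower, 14 and 2 in V87R and 11 and 3 in L88D (median 0.104), against 9.74%, 7.01% and 8.96% of all genes higher. Over the alternatives the number higher ran from 9 to 18 for both mutants together, with the 9 without L88D libraries 2 and 3, from 9 to 18 in V87R and from 4 to 13 in L88D, with the 4 from L88D library 1 alone. Slc7a11, the cystine importer, rose most of them, from 22, 30.8 and 27.5 CPM to 58.3, 60.2 and 54.5 CPM in V87R and 57.8, 58.3 and 59.3 CPM in L88D, 2.19-fold (adjusted p = 7.5e-06). Its mutant libraries were all above the vector and all below the wild type (167 ± 9.59 CPM). Chaperones and other genes of the unfolded protein response did not move as a group, with 1 of 26 higher and 1 lower, and neither of these, Edem1 and Sec61b, was called in every alternative. Sterol genes had 5 of 28 higher and 2 lower, and p53 targets 8 of 21 higher and 4 lower, with Fas, the death receptor, 1.44-fold and Cdkn1a, the inhibitor p21, 1.2-fold above the vector. Hypoxia and glycolysis genes (7 of 34 higher, 4 lower) and NRF2 targets (8 of 28 higher, 4 lower) were divided.

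Genes of growth factor and matrix biology were likewise divided. ERK feedback genes had 8 of 21 higher and 1 lower, with Ereg and Areg, ligands of the EGF receptor, at 1.57- and 1.3-fold and the phosphatase Dusp1 at 0.719 of the vector. AP-1 and immediate-early genes had 6 of 22 higher and 3 lower, the latter being Klf2 (0.748 of the vector), Ier2 (0.794) and Myc (0.875). YAP/TEAD targets had 5 of 22 higher and 2 lower, collagens 2 of 17 and 5, mesenchymal genes 6 of 25 and 5 and epithelial genes 2 of 11 and 2. Of all genes, 9.74% were higher and 9.02% lower. Col6a1, a chain of the microfibrillar collagen VI, was at 734, 686 and 707 CPM with the vector, 522, 506 and 495 CPM in V87R and 499, 500 and 508 CPM in L88D. Its groups did not overlap (0.712 of the vector, adjusted p = 1.2e-12), and Col6a2, the chain encoded beside it, was at 0.685. Krt8 was at 0.791 and Epcam, an epithelial adhesion molecule, at 0.766 of the vector.

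Housekeeping groups shifted by small amounts. The first 3 lists below had more genes lower in the mutants together than the 9.02% of all genes. Of all genes, 4.7% were lower in V87R and 8.43% in L88D. Cytosolic ribosomal protein genes had 13 of 75 lower and 0 higher (median -0.089), with 1 lower in V87R and 12 in L88D, and nuclear-encoded respiratory chain genes had 16 of 69 lower and 0 higher (median -0.109), with 2 and 17. Ribosome biogenesis genes had 14 of 33 lower and 0 higher (median -0.09), with 5 and 15. No gene of these 3 lists was called in the direct test between the mutants. Mitochondrially encoded genes had 2 of 13 higher and 0 lower, and lysosomal genes 6 of 37 higher and 4 lower, against 9.74% of all genes higher. Of 22 survival genes 5 were higher and 3 lower, with Birc3, an apoptosis inhibitor induced by NF-kB, 1.42-fold above the vector. Toll-like and interleukin-1 receptor genes had 6 of 23 higher and 1 lower, led by Tlr2, the receptor of bacterial lipoproteins, at 2.0-fold (adjusted p = 3.3e-14), and genes of prostaglandin, nitric oxide and arginine metabolism had 8 of 18 higher and 1 lower.

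Other ligands that T and NK cells read changed less than Cd274. Of the 15 genes of that list, 6 were higher and 3 lower, against 9.74% and 9.02% of all genes. Cd40, a costimulatory receptor of the TNF family, went from 9.15 ± 0.586 CPM to 17.8 ± 0.907 CPM in V87R and 16.9 ± 0.55 CPM in L88D (1.9-fold). Nt5e, the ectoenzyme CD73, rose 1.35-fold and Cd47, the signal against phagocytosis, 1.19-fold. Lgals9 and Cd276 were not called (log2 fold changes of -0.01 and 0.07). Of markers of other cells, the macrophage and dendritic list had 2 of 13 tested genes higher in the mutants together, Cd74 and H2-Aa, which belong to the class II pathway, and 5 higher in L88D alone, the group with the 2 libraries described above. Cd74, the invariant chain, rose 1.86-fold and was called in V87R as well (adjusted p = 2.6e-05). H2-Aa, at 0.385 ± 0.23 CPM in V87R and 0.485 ± 0.36 CPM in L88D, was not called without those 2 libraries. It had no adjusted p in DESeq2. Its log2 fold change was at least 2.76 under each of the 16 alternatives that gave it an adjusted p. The other lists of foreign cells had 1 of 2 (T, B and NK cells), 1 of 9 (fibroblasts, with 2 lower) and 1 of 7 genes higher (endothelium, with 1 lower).

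Some rises exceeded those in wild-type cells, and these genes were named after their values were seen. Of the 87 genes that rose at least 2-fold and reached 5 CPM, 29 were higher than in wild type, 34 lower and 24 not called. Of all genes, 26.1% were higher and 25.4% lower than in wild type. The 87 were chosen for being high in the same mutant libraries, which favours higher values against wild type. Mpeg1, which encodes the pore-forming protein perforin-2, was at 4.55, 5.89 and 5.04 CPM with the vector, 27.1, 28.0 and 27.0 CPM in V87R and 26.8, 30.4 and 26.9 CPM in L88D. C4b, complement component 4, was at 9.01, 9.08 and 7.78 CPM with the vector, 22.4, 23 and 23.3 CPM in V87R and 25.6, 25.7 and 28.2 CPM in L88D. Both were high in every mutant library, at 5.42- and 2.86-fold over the vector and 2.69- and 3.27-fold over the wild type (adjusted p = 1.6e-14 and 3.2e-16), which had 10.3 ± 1.22 and 7.53 ± 0.716 CPM. Apol6 was 4.03-fold above the vector and 3.76-fold above the wild type, and Samhd1, a deoxynucleotide hydrolase that restricts retroviruses, 2.12-fold and 1.56-fold.

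The 2 mutants were close to each other. No gene was called between V87R and L88D in edgeR's quasi-likelihood test, with 852 genes (5.85%) at an unadjusted p under 0.05 and a smallest adjusted p of 0.42. No gene was called in opposite directions against the vector. A missed threshold does not show that the mutants act alike, but the 95% interval of their difference lay within 1.5-fold for 10642 genes (73%), and for 9755 of the 9818 genes of at least 5 CPM (99.4%). The log2 difference V87R minus L88D had an interval of 0.04 to 0.23 for Cd274, -0.07 to 0.15 for Iigp1, -0.03 to 0.15 for Gbp2 and -0.26 to -0.10 for Nos2. DESeq2 and limma-voom also called 0 genes (591 and 899 at an unadjusted p under 0.05), and 25 were called when edgeR was fitted to the 6 mutant libraries alone. For Lyz2, the macrophage gene uneven between libraries of L88D, the difference was -1.48 with an interval of -2.43 to -0.54.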

How the data were processed

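Per the labels, total RNA (1 µg) was made into NEBNext Ultra II Directional libraries and sequenced paired-end at 150 bp. What the authors deposited are whole-number counts for each gene symbol. Per the submitters' processing notes, reads were handled with STAR 2.7.3a, Trim Galore 0.6.0 and featureCounts 1.6.3, and the build was GRCm38.p6. How strand and multi-mapping reads were treated, and with which annotation release, is not given in the sources used here. Of 55571 rows, 22982 were 0 in every library. Columns named for a cysteine substitution were taken as Malt1_PD, the only construct without columns of its own name.

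In R 4.3.3, edgeR 4.0.16 (filterByExpr by group, TMM, robust quasi-likelihood fit of all 15 libraries, 1 mean per group) tested the mean of both mutants minus the vector, each mutant minus the vector, both minus Malt1_WT, and V87R minus L88D, two-sided, Benjamini-Hochberg over 14571 genes, threshold 0.05. The common biological coefficient of variation was 4.61%. The pooled contrast weighs both mutants equally. Gene lists were described by counts and medians only. The groups compared and the gene lists were chosen with earlier results of these data known. Besides Malt1, the text names the 12 largest rises and falls among genes called in the pooled and both single contrasts, with no overlap of the libraries and at least 5 CPM in the higher group, without predicted symbols, and up to 4 members per list with the smallest p. Names outside this rule, list members included, were chosen after their values were seen. Coordinates come from the GENCODE GRCm38 annotation, which matched 14568 of the tested symbols, and promoters from RefSeq. Alternatives were RLE and upper-quartile scaling, DESeq2 1.42.0, limma-voom 3.58.1, no filter, fewer libraries, a replicate block and the 6 mutant libraries as 1 group.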

Additional observations from a re-analysis of the deposited data

How the results depend on the processing

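Called numbers moved mostly with single libraries. For both mutants against the vector, leaving out each library gave 1634 to 3038 called, 999 to 1595 higher and 635 to 1443 lower, with the lowest without vector library 1; without vector library 3 they were 1819 called and 704 lower. For L88D the range was 1545 to 2854 called and 573 to 1344 lower, with 684 lower without vector library 3 and 711 and 702 without L88D library 2 or 3. For V87R it was 1130 to 1924 called and 357 to 823 lower, with the lowest without V87R library 2, 433 lower without V87R library 1, and 386 and 380 without vector library 1 or 3. Without L88D libraries 2 and 3, an alternative chosen after seeing the data, the numbers were 1731 called, 928 higher and 803 lower for both mutants and 783, 538 and 245 for L88D, with fewer samples in the fit and the lone L88D library assumed to vary like the other groups. Between V87R and L88D, 5 genes were called with no filter on low counts (1 higher, 4 lower), 25 when fitted on those libraries alone (14 higher, 11 lower), and 0 to 2 (0 to 2 lower) when each library was left out, the 2 without L88D library 1; the cause was not tested. RLE and upper-quartile scaling, DESeq2, limma-voom, the replicate block and the 6 libraries as 1 group left the counts against the vector and wild type within 1.5 times. Replicate numbers did not pair the libraries: deviations of same-numbered libraries correlated at -0.051 to 0.073 over 9 pairs, and the fit with the replicate block called 3253 genes for both mutants against the vector.

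No named gene changed direction; 77 of the values of named genes under alternatives lost the call, leaving out genes with no adjusted p in DESeq2, among them those of Sec61b, mt-Nd4, Rps7 and Cd79b, all with an adjusted p of at least 0.025 in the pooled test. The number of S-phase genes lower ran from 5 to 15, including 8 with no filter, and of ATF4 targets higher from 9 to 18, while interferon-stimulated genes higher ran from 40 to 44 and NF-kB targets from 36 to 39. Depth limits genes under 1 CPM, which made up 60 of the 209 rises of at least 2-fold.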
